A study of Homo sapiens with 6 samples.

Results

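The protein genes of the mitochondrial ribosome were described in PANC1 cells, a human pancreatic carcinoma line, after gemcitabine, a deoxycytidine analogue used as a chemotherapy, which interferes with the copying of DNA. Members were the genes of the deposited expression table whose current symbol begins with MRPL or MRPS followed by a digit, matched by Ensembl identifier and without readthrough transcripts. The rule found 78 of 20461 genes. Of these, 76 name a protein (48 MRPL and 28 MRPS), and the antisense RNA MRPL20-AS1 and the pseudogene MRPL42P1 were kept apart from all counts. The log2 fold change of MRPL20-AS1 was -0.02 (adjusted p = 0.906, edgeR), and MRPL42P1 had between 1 and 6 fragments per library. The annotated genes MRPL45 and MRPS21 were not analysed here, since their current identifiers found no match in the table.

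The cells were grown for 24 h and then received 50 nM gemcitabine or the vehicle, 0.1% DMSO, for 48 h. RNA-seq was done on 2 biological replicates per condition, which are called vehicle 1 and 2 and gemcitabine 1 and 2 here. These numbers only tell the libraries apart. DNaseI-seq, which maps open chromatin, was done on 1 library per condition. The study asked how gene expression and chromatin respond to gemcitabine, in order to find pathways that sensitize pancreatic cancer cells to the drug. All libraries came from a single cell line at a single dose and time.

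Mitochondria carry their own ribosome, which makes only the core membrane proteins of the respiratory chain that mitochondrial DNA still encodes. Its proteins are all encoded in the nucleus, made in the cytosol and imported, and they join mitochondrial ribosomal RNA in a large subunit, where peptide bonds form, and a small subunit, where the messenger is decoded. Some descend from the bacterial ribosome and others are found only in mitochondria. Symbols do not always tell the subunit, as MRPS30 and MRPS18A belong to the large subunit, and MRPS36 is now regarded as a subunit of the 2-oxoglutarate dehydrogenase complex. With these placed, the members comprised 50 proteins of the large subunit, 25 of the small subunit, and MRPS36.

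The RNA libraries held between 13194533 and 15766237 fragments assigned to genes. The members took 0.461% and 0.455% of them in the vehicle libraries and 0.475% and 0.446% in the gemcitabine libraries. The keratin genes KRT7, KRT8 and KRT18 were strongly expressed (336 to 1658 FPKM), as were VIM (385 to 476) and CD44 (291 to 411). KRT19 was low, at 3.22 and 3.05 FPKM in vehicle and 5.83 and 6.91 in gemcitabine, and so was SOX9 at 3.13 to 3.90 FPKM. FPKM are read fragments scaled to transcript length and library size. The 9 measured markers of leukocytes, endothelium, acinar and islet cells lay between 0 and 0.313 FPKM, with CD3E, PRSS1, INS and GCG at 0 in every library. The 3 fibroblast markers were higher in both gemcitabine libraries than in vehicle, with COL1A1 at 864 and 867 against 987 and 1100 FPKM, DCN at 3.22 and 3.02 against 5.02 and 6.30, and LUM at 4.24 and 4.76 against 9.50 and 7.66. Of the other markers, KRT8 (501 and 471 against 650 and 613 FPKM), KRT18 (356 and 336 against 472 and 427) and CD44 (291 and 291 against 403 and 411) were likewise higher. KRT7 was lower (1658 and 1551 against 1491 and 1498), and VIM and SOX9 overlapped between conditions. Over all tested genes the median log2 ratio of FPKM was 0.14. The share of these markers in the results on the members was not tested.

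The start sites of the members had features in common that the choice of symbols did not use. The promoter was taken as 250 bases before to 50 bases after the start of the representative transcript on the hg19 (GRCh37) build, and each motif was searched on both strands. The core AAGATGG, bound by YY1, a zinc-finger factor known to act at genes of mitochondrial function, was found in 24 of 76 member promoters (31.6%) and in 6.99% of the 14087 promoters of tested genes. In 17 members it lay on the gene's own strand within the first 50 bases (22.4%, against 3.47% of tested genes), and in 13 of these its ATG was the annotated start codon. The windows of 9 of the 17, whose levels are described below, are given in the direction of the gene, with the core in capitals.

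MRPS30: gcgggcaAAGATGGcggcggcca
MRPL50: ctcatcgAAGATGGcggcgcgat
MRPS18B: gtacgtcAAGATGGcggcgtctg
MRPL49: gcaggtaAAGATGGcagctacca
MRPS18A: gtttttgAAGATGGcggccctca
MRPS24: ttggcccAAGATGGcggcctccg
MRPS27: acgctccAAGATGGctgcctcca
MRPL51: aaggcccAAGATGGctgtcttcg
MRPL11: ctggcccAAGATGGtggcgccca

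They lie at chr5:44809055-44809077 (plus strand) for MRPS30, chr9:104160862-104160884 (minus) for MRPL50, chr6:30585633-30585655 (plus) for MRPS18B, chr11:64889809-64889831 (plus) for MRPL49 and chr6:43655504-43655526 (minus) for MRPS18A. For MRPS24 the window is chr7:43909082-43909104, for MRPS27 chr5:71616036-71616058, for MRPL51 chr12:6602392-6602414 and for MRPL11 chr11:66206280-66206302, all on the minus strand. In each of the first 7 the ATG inside the capitals is the annotated start codon, whereas in MRPL51 and MRPL11 it is not. Start codons close to the start site were common among the members. In 46 of 76 (60.5%) the start codon began within 50 bases of transcript, against 16.6% of tested genes, and the median 5′ leader was 30.5 bases against 141. Among genes with such a short leader, the sense core was present in 28.3% of members and 15% of tested genes.

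The core CCGGAAG of ETS factors, the family of the mitochondrial regulator GABP (also called NRF2), was found in 31 member promoters (40.8%) and in 17.6% of those of tested genes. The core CGCATGC of NRF1, a factor that activates many nuclear genes for mitochondria, was found in 8 members (10.5%), against 6.10%. The other motifs were no more frequent in the members, namely the CCAAT box CCAAT (27.6% against 35.8%), the GC box GGGCGG (60.5% against 72.1%), the E-box CACGTG (7.89% against 9.80%), the TATA box TATAAA (5.26% against 5.79%) and the CRE core TGACGTC (5.26% against 5.40%). A match is only a match of letters. The 120 bases upstream of the start are shown for MRPS26 and MRPS30, which fell with gemcitabine, had a DNaseI peak at the start and have no annotated exon in this window. MRPL17 was added after its values were seen, for its NRF1 cores. ETS and NRF1 cores are in capitals.

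MRPS26: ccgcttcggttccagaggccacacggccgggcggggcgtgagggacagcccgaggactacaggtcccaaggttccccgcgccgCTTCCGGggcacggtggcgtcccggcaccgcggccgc
MRPS30: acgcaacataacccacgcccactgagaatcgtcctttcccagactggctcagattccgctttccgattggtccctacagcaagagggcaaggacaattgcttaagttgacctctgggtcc
MRPL17: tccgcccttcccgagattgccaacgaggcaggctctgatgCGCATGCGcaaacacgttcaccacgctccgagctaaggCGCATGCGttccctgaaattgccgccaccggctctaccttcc

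These windows are chr20:3026578-3026697 (plus strand) for MRPS26, chr5:44808929-44809048 (plus) for MRPS30 and chr11:6704572-6704691 (minus) for MRPL17. MRPS26 carried an ETS core on the opposite strand. MRPL17 carried the palindromic run that holds the NRF1 core on both strands at 2 places, and MRPS30 carried neither core in this window.

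**Figure D1:**
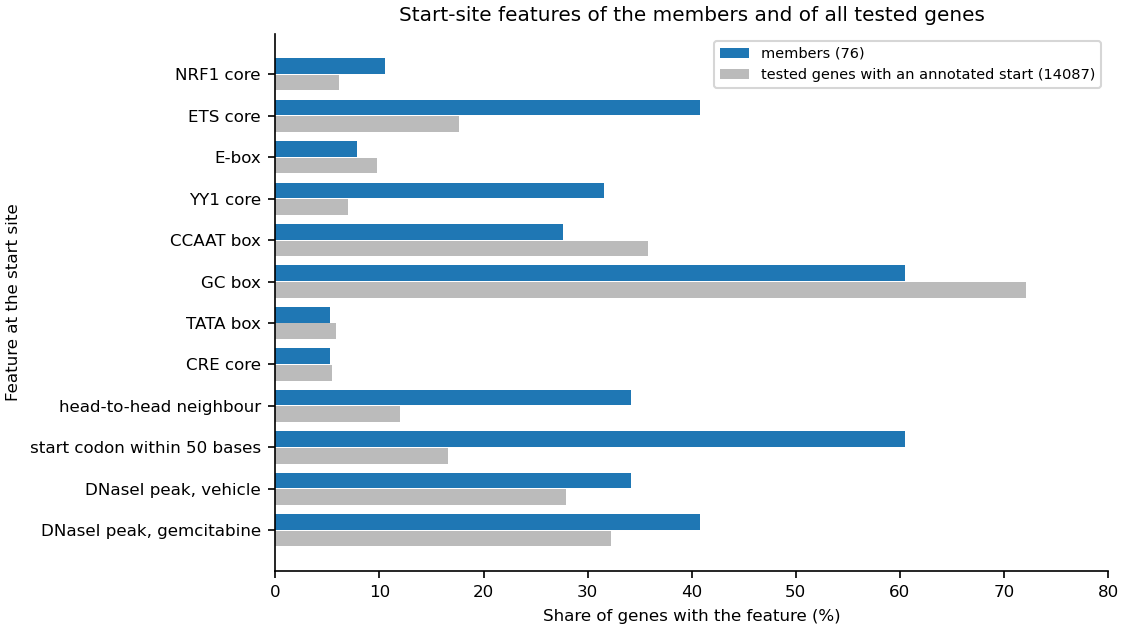
Share of genes (%) with each feature at the start site, for the 76 members (blue) and the 14087 tested genes with an annotated start (grey). The ETS core (40.8% against 17.6%), the YY1 core (31.6% against 6.99%), a head-to-head neighbour (34.2% against 12%) and a start codon within 50 bases (60.5% against 16.6%) were more frequent in the members, and the CCAAT and GC boxes were less frequent.

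Many members shared their start region with another gene. In 26 of 76 (34.2%, against 12% of tested genes) another gene started within 1000 bases in the opposite direction, so that both lie head to head. One such pair joined both subunits, since MRPL46 and MRPS11 start 320 bases apart. Some other partners also serve mitochondria, among them TWNK (the mitochondrial DNA helicase) beside MRPL43, SARS2 (mitochondrial seryl-tRNA synthetase) beside MRPS12, and NDUFB5 (complex I) beside MRPL47. Further partners include TCP1, PSMA2, HIRA and ZNF189. The partners were not classed by function, so no share of mitochondrial partners is given. The members lay on 21 chromosomes with at most 8 on any of them, and their representative transcripts had a median length of 1242 bases against 3311.

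All 76 members were expressed and passed the filter of at least 10 fragments over the 4 libraries, so no member was lost to low counts. Their mean FPKM over the 4 libraries ranged from 13.3 to 235 with a median of 73.8, against a median of 12.6 FPKM over the tested genes. The spread between the highest and the lowest member was 17.7-fold, although each mature ribosome holds its proteins in fixed proportions. MRPL51, a mitochondria-specific protein of the large subunit, had the highest level, with 211 and 210 FPKM in vehicle and 274 and 247 FPKM in gemcitabine. MRPS24, which corresponds to bacterial S3, followed with 215 and 197 FPKM in vehicle and 234 and 218 in gemcitabine. MRPL17, a protein at the exit of the peptide tunnel, stood at 245 and 216 FPKM in vehicle and 185 and 174 in gemcitabine. The RNA-binding repeat protein MRPS27 stood at 209 and 196 against 209 and 190 FPKM. Neighbours in this order overlapped over the libraries, whereas every library of MRPL51 lay above every library of MRPS27. Exons of MRPL51, MRPS24 and MRPS27 overlap NCAPD2, the readthrough URGCP-MRPS24 and PTCD2 in this order. Part of their reads could belong to these genes.

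At the other end stood MRPS31, with 14.9 and 13.5 FPKM in vehicle and 13.1 and 11.6 in gemcitabine. MRPS33 had 14.8 and 13.8 against 15.1 and 13.9 FPKM, MRPL50 had 16 and 18.1 against 14.5 and 16.1 FPKM, and MRPS16, which corresponds to bacterial S16, had 15.3 and 15.3 against 19.6 and 18.8 FPKM. Neighbours overlapped here too, whereas MRPS31 and MRPS33 lay below MRPS16 in every library. Of the 8 members at both ends MRPL17 and MRPL50 fell with gemcitabine, and MRPL50, a mitochondria-specific protein of the large subunit, had 36.3 and 37.8 CPM in vehicle and 29.2 and 28.5 in gemcitabine, with adjusted p of 0.0567 and 0.0977 without vehicle 1 or 2 (edgeR). The FPKM are scaled to library totals and divided by a transcript length estimated by the authors' software, which differs between libraries for genes with several isoforms.

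**Figure D2:**
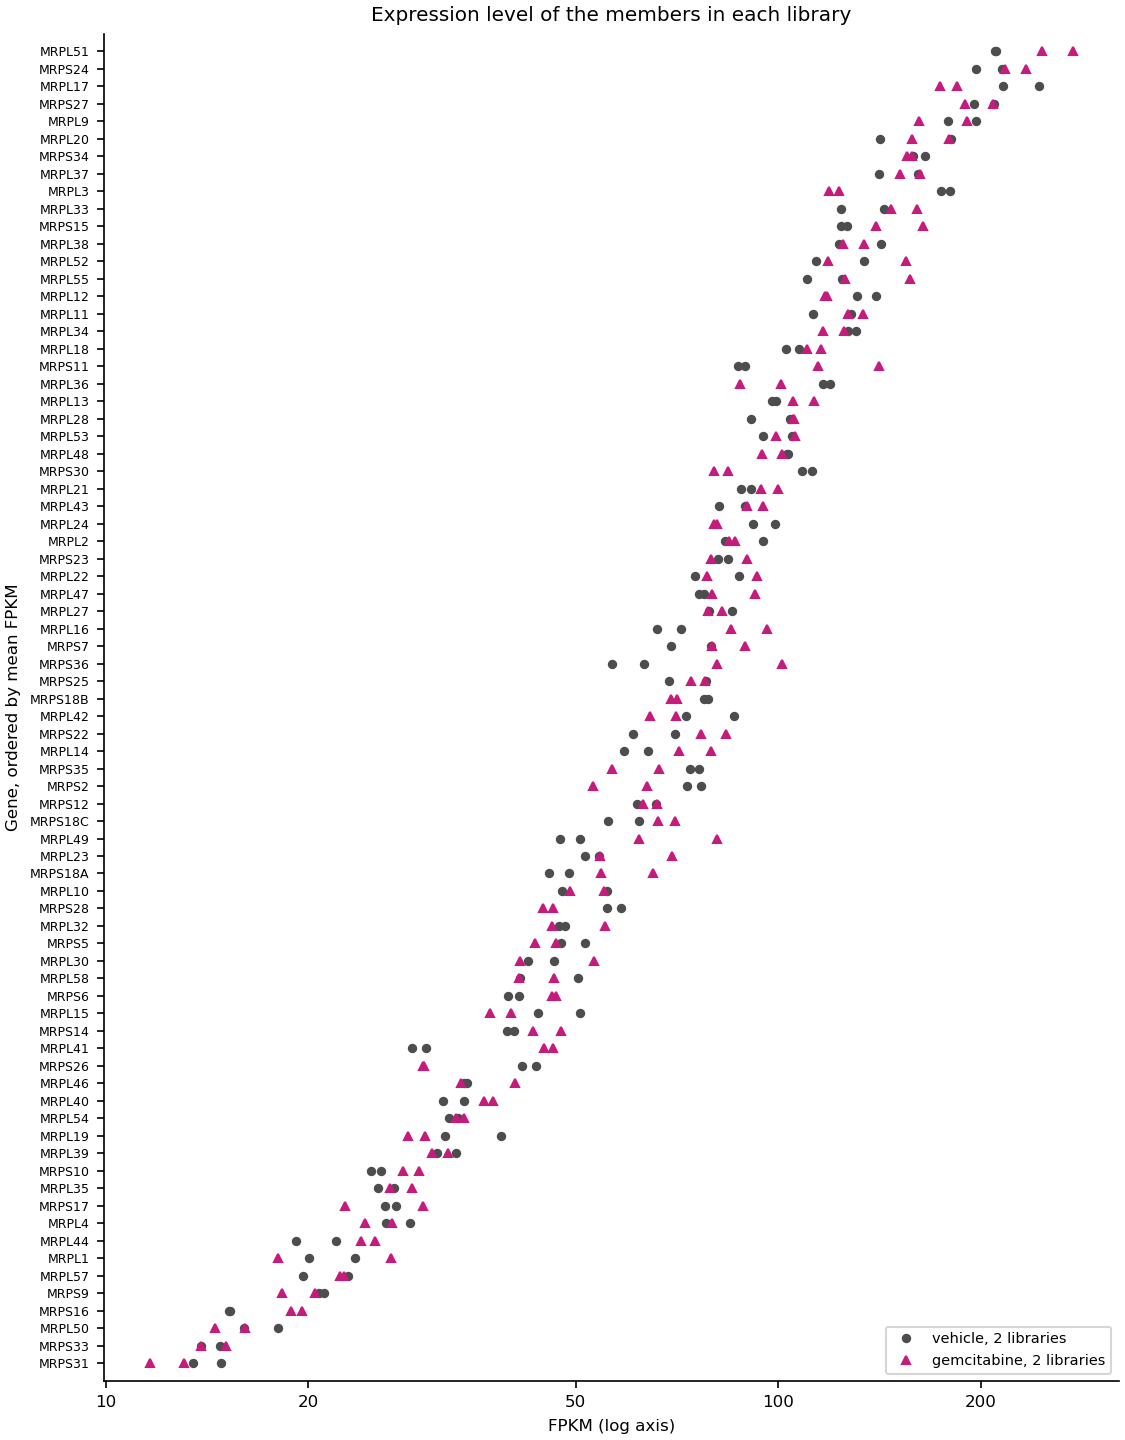
FPKM (log axis) of the 76 members in the 2 vehicle libraries (grey circles) and the 2 gemcitabine libraries (pink triangles), ordered by mean FPKM. Levels ran from 13.3 for MRPS31 to 235 FPKM for MRPL51, and for most members the distance between conditions was small beside the distance between genes.

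Gemcitabine moved 23 of the 76 members past the test, 22 of them by less than 1.5-fold. Levels of a gene in the libraries are given as CPM, its fragments scaled to a common library size with TMM factors, and differences were assessed over all 14854 genes by the quasi-likelihood F test of edgeR, with p adjusted after Benjamini and Hochberg. In bulk RNA, fewer expressing cells and less RNA per cell cannot be told apart. At an adjusted p under 0.05, 18 members fell (20% of all tested genes were called lower) and 5 rose (18.5% were called higher). The 53 others did not pass. Either way, 30.3% of the members were called, against 38.5% of the tested genes. Log2 fold changes ran from -0.62 to 0.53 with a median of -0.07, against a median of 0.01 over all tested genes, and 46 members (60.5%) stayed within 0.2 of 0 on this scale, against 39.5% of tested genes. All members had a mean above 13 FPKM, and among the 8134 tested genes with a mean of at least 10 FPKM the background was 27.9% lower and 18.7% higher (46.7% either way), with a median of -0.04. The stricter criteria of the study, which add a fold change over 1.5, a mean of at least 0.1 FPKM in 1 or both conditions and a difference of at least 1 FPKM, were met by 1 member with a fall (background 4.43%) and by 0 members with a rise (background 5.69%), where 10.1% of tested genes met them either way. The 5 rises at an adjusted p under 0.05 all stayed under that fold. At an unadjusted p under 0.05 (edgeR), 9 of 76 members rose. At least 18.5% of tested genes did so, since that share rose at an adjusted p under 0.05.

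The direction of the family as a whole depended on the scaling. TMM sets the bulk of genes near 0, whereas scaling to library totals moved the median of all genes from 0.01 to 0.12. With library totals the members' median turned from -0.07 to 0.04, still below that of all genes, and the calls became 12 higher and 14 lower in place of 5 and 18, where 27.4% and 13.3% of tested genes were called (40.7% either way). DESeq2 called 3 members higher and 15 lower (background 11.5% and 14.5%), and limma on log2(FPKM + 1) called 3 and 3 (background 9.28% and 3.96%). The 23 called members had the same sign under both scalings, and 15 members that were not called changed theirs. In 37 members both gemcitabine libraries lay below both vehicle libraries (34.8% of tested genes did so) and in 15 both lay above (34.9%), with the remaining 24 overlapping.

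**Figure D3:**
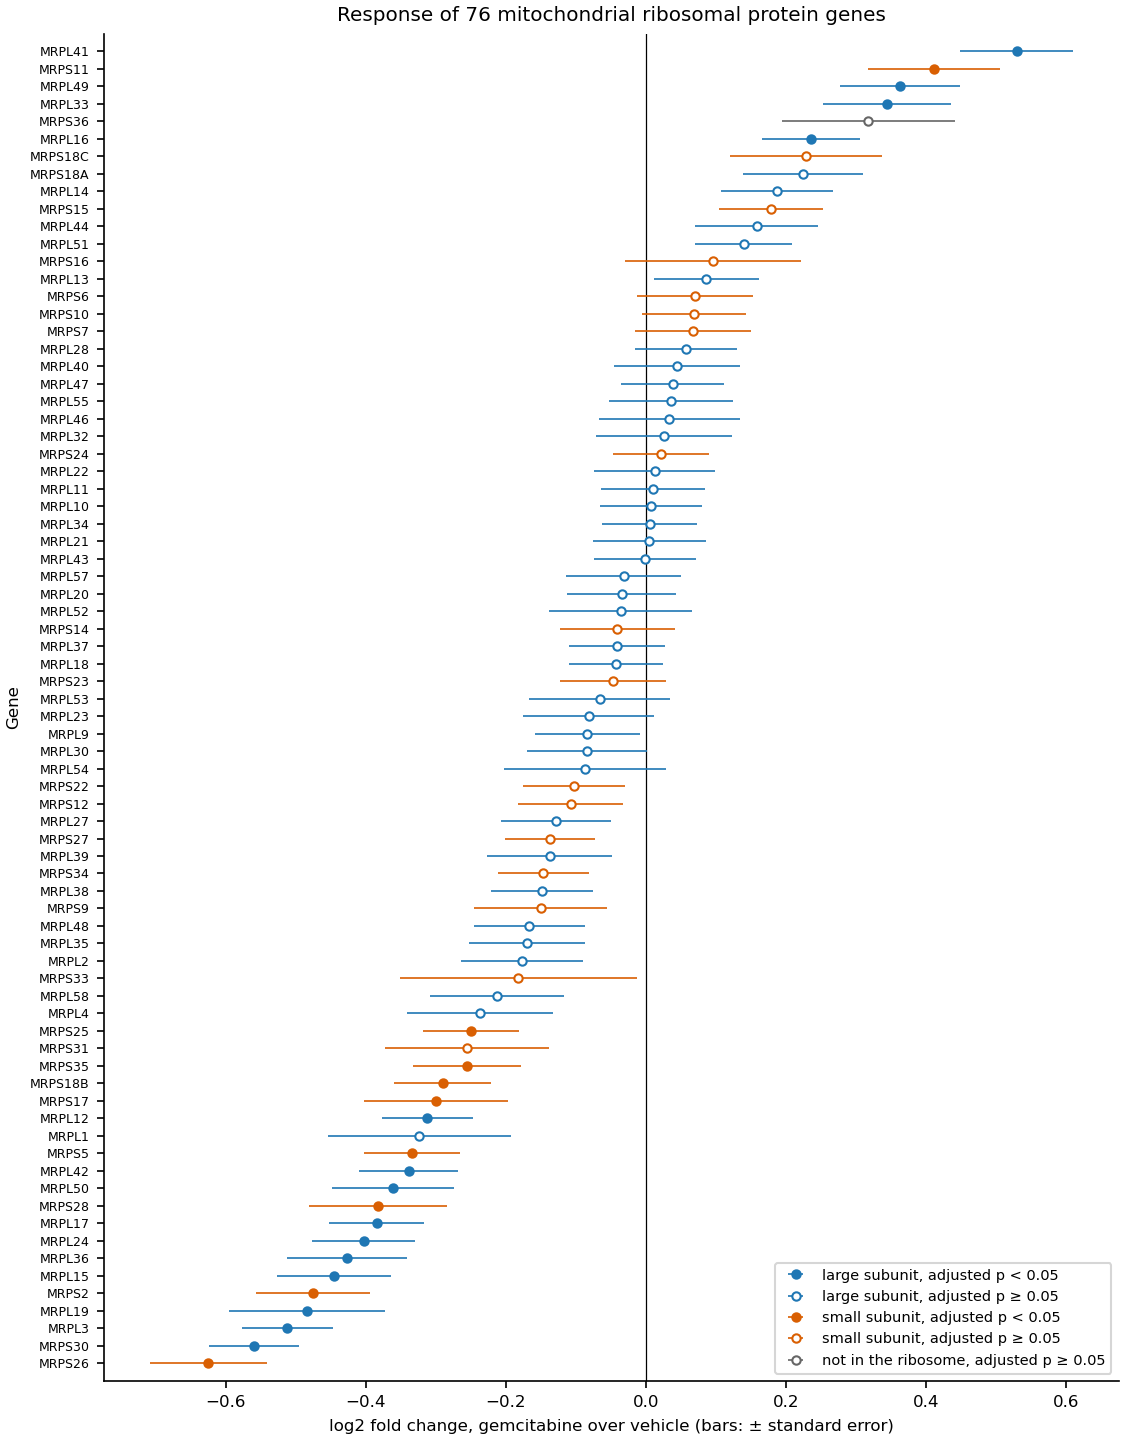
Log2 fold change of gemcitabine over vehicle for each of the 76 members with its standard error, coloured by subunit, filled where the adjusted p of edgeR was under 0.05. The values ran from -0.62 (MRPS26) to 0.53 (MRPL41), with 18 filled points on the left and 5 on the right.

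MRPS26, a mitochondria-specific protein of the small subunit (chr20:3026698-3028896, plus strand), was the member that met the criteria of the study. It was measured at 44.9 and 44.3 CPM in vehicle and 29.0 and 28.9 CPM in gemcitabine. The conditions did not overlap and the replicates lay close together. Its log2 fold change was -0.62 ± 0.08 (SE, adjusted p = 4.23e-05, edgeR), which is a fold of 0.649.

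MRPS30 (chr5:44809049-44820530, plus strand) is a mitochondria-specific protein of the large subunit despite its symbol, and was once named as a programmed cell death protein. Its levels were 216 and 217 CPM in vehicle and 145 and 149 CPM in gemcitabine. Both gemcitabine libraries lay far below vehicle, and the log2 fold change was -0.56 ± 0.06 (adjusted p = 1.19e-05, edgeR). MRPL3 (chr3:131181056-131221827, minus strand), which corresponds to bacterial L3 near the site of peptide bond formation, gave 189 and 188 CPM in vehicle and 133 and 132 in gemcitabine. The replicates lay within 1 CPM of each other, and the log2 fold change was -0.51 ± 0.06 (adjusted p = 2.54e-05, edgeR).

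MRPL19 (chr2:75873909-75917977, plus strand), at the interface of the subunits, had 20.8 and 23.8 CPM in vehicle and 16.2 and 15.7 in gemcitabine. MRPS2 (chr9:138391830-138396519, plus strand), of the bacterial S2 family, had 49.5 and 50.1 CPM against 37.1 and 34.6. MRPL15, of the bacterial L15 family, had 50.2 and 47.2 CPM against 35.3 and 36.3. The conditions did not overlap in any of these genes. Their log2 fold changes were -0.48 ± 0.11 for MRPL19, -0.47 ± 0.08 for MRPS2 and -0.44 ± 0.08 for MRPL15, with adjusted p of 0.00319, 0.000357 and 0.000623 (edgeR). An exon of MRPL19 overlaps GCFC2 and one of MRPS2 overlaps PIERCE1, so part of their reads could belong to the neighbour. MRPL19 was not called when vehicle 2 was left out (its adjusted p then reached 0.113).

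The rises were led by MRPL41 (chr9:140446331-140447007, plus strand), a small mitochondria-specific protein of the large subunit. It was measured at 34.9 and 34.5 CPM in vehicle and 49.1 and 51 CPM in gemcitabine. Both gemcitabine libraries were well above vehicle, with a log2 fold change of 0.53 ± 0.08 (adjusted p = 0.000127, edgeR). It was the only rise that was called with every library left out in turn.

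MRPS11 (chr15:89010684-89024007, plus strand), of the bacterial S11 family on the platform of the small subunit, had 58.1 and 57.3 CPM in vehicle and 85.4 and 68.0 in gemcitabine. The gemcitabine libraries differed from each other by more than the lower one differed from vehicle. The log2 fold change was 0.41 ± 0.09 (adjusted p = 0.00303, edgeR), and it was 0.24 without gemcitabine 1 and 0.57 without gemcitabine 2. Without vehicle 1 or vehicle 2 MRPS11 was not called (adjusted p = 0.0817 and 0.0962). Its head-to-head partner MRPL46 showed 31.0 and 33.1 CPM in vehicle and 35.9 and 29.7 in gemcitabine, overlapping, with a log2 fold change of 0.03 (95% interval -0.16 to 0.23).

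MRPL49 (chr11:64889655-64894843, plus strand) had 49.3 and 55.5 CPM in vehicle and 71.5 and 63.3 in gemcitabine, and overlaps an exon of SYVN1. MRPL33 (chr2:27994584-28210954, plus strand), of the bacterial L33 family, had 30.2 and 29.1 CPM against 39.8 and 35.3. MRPL16 (chr11:59573613-59578251, minus strand), of the bacterial L16 family that touches the incoming tRNA, had 67.2 and 64.9 CPM against 77 and 78.4. In all 3 the conditions did not overlap. The log2 fold changes were 0.36 ± 0.09, 0.34 ± 0.09 and 0.24 ± 0.07, with adjusted p of 0.00374, 0.00826 and 0.0151 (edgeR). MRPL49 was not called without vehicle 1 (adjusted p = 0.127). MRPL33 and MRPL16 were not called without vehicle 1 (0.0845 and 0.0920) or vehicle 2 (0.126 and 0.154).

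**Figure D4:**
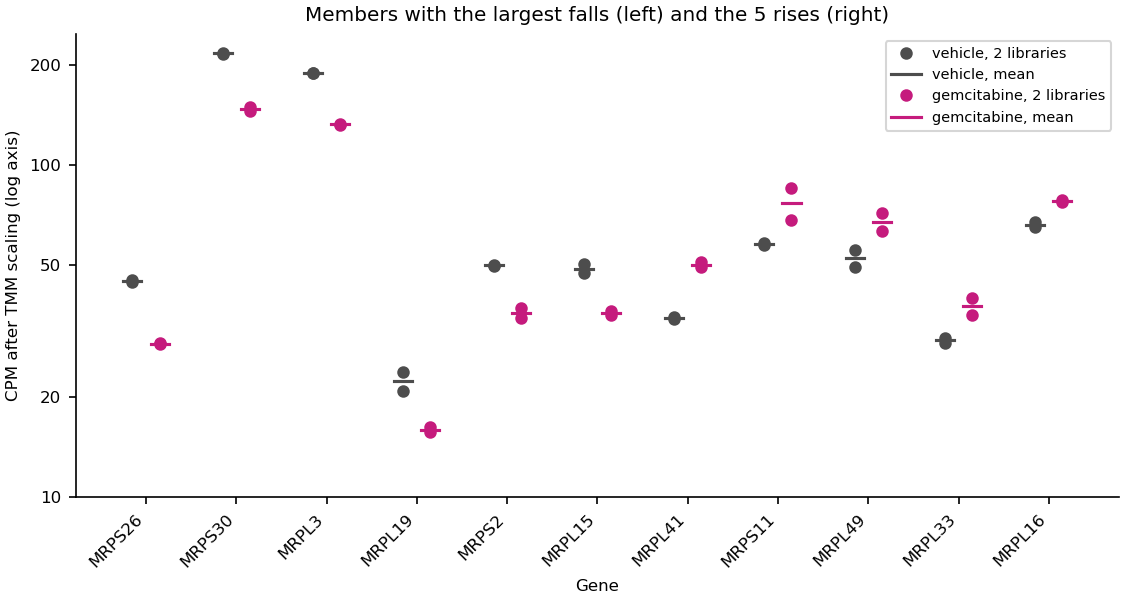
CPM after TMM scaling (log axis) in the 2 vehicle (grey) and 2 gemcitabine (pink) libraries for the 6 members with the largest falls and the 5 members that rose, with horizontal bars at the means. No gene shown had overlapping conditions, where 34.8% of tested genes lay below vehicle and 34.9% above without overlap. MRPS11 had the widest gap between its gemcitabine libraries (85.4 and 68.0 CPM).

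The other 12 members that fell had log2 fold changes between -0.43 (MRPL36) and -0.25 (MRPS25). They were MRPL12, MRPL17, MRPL24, MRPL36, MRPL42 and MRPL50 of the large subunit and MRPS5, MRPS17, MRPS18B, MRPS25, MRPS28 and MRPS35 of the small subunit. MRPL17 and MRPL24 sit at the exit of the peptide tunnel. They changed by -0.38 ± 0.07 and -0.40 ± 0.07, and the other 5 members placed there did not pass. Over all tested genes 20% were called lower and 38.5% either way. Of 9 members in the central protuberance of the large subunit 0 were called, and the sites were not compared by a test. MRPL58, the hydrolase of this region that can release peptides from stalled ribosomes, had 36.4 and 31.6 CPM in vehicle and 28.8 and 29.9 in gemcitabine, with a log2 fold change of -0.21 (95% interval -0.40 to -0.03, adjusted p = 0.0924, edgeR).

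The stalk recruits translation factors to the ribosome. MRPL12, its mobile arm, had 127 and 123 CPM in vehicle and 101 and 101 in gemcitabine, a log2 fold change of -0.31 ± 0.07 (adjusted p = 0.00172, edgeR, and 0.0674 without vehicle 1). MRPL10, which anchors MRPL12, had 72.3 and 66.8 CPM against 70.0 and 69.8, and MRPL11, at the stalk base, had 97.1 and 86.4 against 94.1 and 90.6. Both overlapped between conditions, with log2 fold changes of 0.0076 and 0.010 and a 95% interval of -0.13 to 0.15 in each. An exon of MRPL12 overlaps another coding gene, so part of its reads could belong there. Whether MRPL12 differed from its partners was not tested.

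In the large subunit 10 of 50 members fell and 4 rose (median -0.04), and in the small subunit 8 of 25 fell and 1 rose (median -0.14). With library totals 10 fell and 8 rose in the large subunit (median 0.07), and 4 fell and 3 rose in the small subunit (median -0.03). Among all tested genes, 20% were called lower and 18.5% higher with TMM, and 13.3% and 27.4% with library totals, and these shares are also the background of the gene lists that follow. Among the small-subunit proteins at mitochondria-specific places, 10 of 10 had a log2 fold change below 0 with TMM (median -0.22). Of all tested genes 7317 of 14854 lay below 0, and 4500 of the 8134 with a mean of at least 10 FPKM. With library totals 8 of these 10 proteins lay below 0, and the share of all genes was not computed. With TMM 4 of the 10 were called lower, namely MRPS26, MRPS18B, MRPS35 and MRPS25. The bacterial part of the small subunit had a median of 0.02 with 4 lower and 1 higher of 15. With library totals these medians were -0.11 and 0.13, 1 of the 10 mitochondria-specific proteins was called lower, and MRPS22 and MRPS23 turned to values above 0. Of the 20 mitochondria-specific proteins of the large subunit, 13 lay below 0 with TMM, with 3 called lower and 2 higher (median -0.04). With library totals 3 of the 20 were called lower and 5 higher (median 0.07). Differences between these groups were not tested.

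The 3 MRPS18 paralogs descend from 1 bacterial protein, but only MRPS18C keeps its place, and MRPS18A and MRPS18B sit at places found only in mitochondrial ribosomes and were counted as such. MRPS18B, in the small subunit, fell from 86.1 and 84.6 CPM in vehicle to 71.2 and 68.4 in gemcitabine, a log2 fold change of -0.29 ± 0.07 (adjusted p = 0.00406, edgeR, and 0.0911 and 0.0723 without vehicle 1 or 2). MRPS18A, in the large subunit, stood at 40.6 and 40.4 CPM in vehicle and 50.4 and 44.2 in gemcitabine, and MRPS18C, in the small subunit, at 16.3 and 16.9 against 20.1 and 18.8. Their log2 fold changes of 0.22 ± 0.09 and 0.23 ± 0.11 did not pass (adjusted p = 0.052 and 0.111, edgeR). With library totals the calls were exchanged, as MRPS18A and MRPS18C were called higher (0.33 and 0.34, adjusted p = 0.0101 and 0.0270) and MRPS18B was not called (-0.18, adjusted p = 0.0514). An exon of MRPS18C overlaps ABRAXAS1, so part of its reads could belong there. Differences among the paralogs were not tested. MRPS36, outside the ribosome, had 17.8 and 18.4 CPM in vehicle and 25.4 and 19.7 in gemcitabine, with an adjusted p of 0.0551 (edgeR).

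The replicates of the members were closer in vehicle than in gemcitabine. Where sampling alone gives a chi-square near 1 per gene, the vehicle libraries gave 1.47 and the gemcitabine libraries 3.59 per member, against 2.17 and 5.16 per gene over all genes. In 51 of 76 members (67.1%) gemcitabine 1 was above gemcitabine 2, against 46.4% of tested genes. In 50 of 76 vehicle 1 was above vehicle 2, and the share of tested genes was not computed for this. The sums of the members' CPM were 4808 and 4711 in vehicle and 4510 and 4343 in gemcitabine.

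A further 5 proteins of the mitochondrial ribosome carry other symbols, and 0 of them passed the test in edgeR. In this test the adjusted p of GADD45GIP1, CHCHD1 and AURKAIP1 were 0.0513, 0.052 and 0.0577, and their unadjusted p lay under 0.05 (3 of 5). At least 38.5% of tested genes had such an unadjusted p, since that share passed the adjusted p. With library totals 2 of the 5 were called higher, against 27.4% of tested genes. DAP3, a GTP-binding protein of the small subunit, had 138 and 137 CPM in vehicle and 143 and 131 in gemcitabine (log2 fold change -0.0085), and PTCD3 had 109 and 111 against 108 and 103 (-0.05). GADD45GIP1 had 111 and 106 CPM against 99.8 and 91.0 (-0.19). AURKAIP1 had 109 and 98.1 CPM against 117 and 117 (0.18), and CHCHD1 had 38.3 and 39.6 against 48.7 and 42.5 (0.23). Apart from DAP3, the conditions did not overlap in these genes, with 2 below vehicle and 2 above, where 34.8% and 34.9% of tested genes did so.

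Genes around the ribosome were read from the same test. Of 26 assembly factors, 8 fell and 0 rose (median -0.14), and 6 fell and 1 rose with library totals. MTERF3, which takes part in assembly of the large subunit, had 23.0 and 24.8 CPM in vehicle and 16.2 and 14.5 in gemcitabine, a log2 fold change of -0.64 ± 0.11. The RNA helicase DHX30 fell as well (-0.45 ± 0.07), as did FASTKD2, an RNA-binding protein of the mitochondrial RNA granule (-0.44 ± 0.07, adjusted p = 0.000369, 0.00012 and 0.000264 in this order, edgeR).

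Of 17 factors of mitochondrial translation, 7 fell and 1 rose (median -0.19), and 6 fell and 2 rose with library totals. The recycling factor MRRF had 60.0 and 58.1 CPM in vehicle and 45.9 and 38.7 in gemcitabine, a log2 fold change of -0.48 ± 0.09. GFM2, the elongation-factor homologue that works beside MRRF in recycling, rose from 85.0 and 84.6 CPM to 109 and 101, with 0.31 ± 0.07 (adjusted p = 0.00059 and 0.00292, edgeR). The peptide deformylase PDF and SLIRP, a binder of mitochondrial messengers, had log2 fold changes of -0.41 ± 0.12 and -0.40 ± 0.08 (adjusted p = 0.014 and 0.00135, edgeR).

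Of 23 genes for maintenance and expression of mitochondrial DNA, 13 fell and 0 rose (median -0.28), and 10 fell and 3 rose with library totals. TWNK fell from 53.9 and 50.0 CPM to 24.4 and 27.4, a log2 fold change of -1.0 ± 0.09 (adjusted p = 1.35e-06, edgeR). Its head-to-head neighbour MRPL43, whose start lies 46 bases away, had 66.5 and 62.4 CPM in vehicle and 65.0 and 63.8 in gemcitabine, with a log2 fold change of -0.0017 (95% interval -0.14 to 0.14). Exons of MRPL43 overlap TWNK and SEMA4G. The topoisomerase TOP1MT and the polynucleotide phosphorylase PNPT1 had log2 fold changes of -0.54 ± 0.08 and -0.52 ± 0.07 (adjusted p = 0.000156 and 3.95e-05, edgeR).

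Among 10 regulators of mitochondrial biogenesis 9 fell under both scalings, and 7 of them met the criteria of the study. The coactivator PPARGC1B fell from 15.8 and 14.4 CPM to 4.61 and 4.70, a log2 fold change of -1.70 ± 0.15 (adjusted p = 1.39e-06, edgeR). The transcription factor MYC fell from 711 and 646 CPM to 200 and 223 (-1.68 ± 0.08, adjusted p = 5.47e-09). The coactivator PPRC1 fell from 127 and 124 CPM to 60.5 and 53.1 (-1.15 ± 0.08, adjusted p = 1.13e-07). The genes of the factors whose cores were searched above also fell, with NRF1 from 30.3 and 29.5 to 21.3 and 17.5 CPM, GABPA (the DNA-binding part of GABP) from 40.2 and 45.4 to 27.8 and 26.4, and YY1 from 134 and 141 to 93.9 and 103. Their log2 fold changes were -0.62 ± 0.11, -0.66 ± 0.09 and -0.48 ± 0.07, and the adjusted p were 0.000386, 6.62e-05 and 9.69e-05 (edgeR).

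Other large families gave a scale for the members. Of 85 tested genes with symbols of cytosolic ribosomal proteins, 11 fell and 2 rose (3 and 8 with library totals), with a median of -0.08 that lay close to the members' -0.07 and likewise turned above 0 (0.03) with library totals. The 3 largest called changes there were in paralogs of ribosomal proteins, RPL22L1 (-0.72 ± 0.09), RPL26L1 (0.57 ± 0.10) and RPL7L1 (-0.45 ± 0.07), with adjusted p of 2.6e-05, 0.000589 and 0.000118 (edgeR). Of 78 nuclear genes listed for respiratory chain subunits, 20 rose and 5 fell, with a median of 0.11, and with library totals 42 rose and 0 fell (median 0.22). This list also counts the ATP synthase. It holds ATP5F1EP2, whose symbol is that of a pseudogene and which was not called (-0.94 ± 0.41, adjusted p = 0.0825, edgeR). The 3 largest called changes of this family with TMM were rises in NDUFA2 (0.41 ± 0.09), NDUFA4 (0.36 ± 0.08) and UQCR11 (0.34 ± 0.11), with adjusted p of 0.00299, 0.00177 and 0.0205 (edgeR). The difference between the families was not tested. The products of the mitochondrial ribosome could not be read, since 12 of the 13 protein genes of mitochondrial DNA are listed at 0 in every library and the remaining MT-ND2 differed widely between the gemcitabine libraries (22897 and 10520 fragments).

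**Figure D5:**
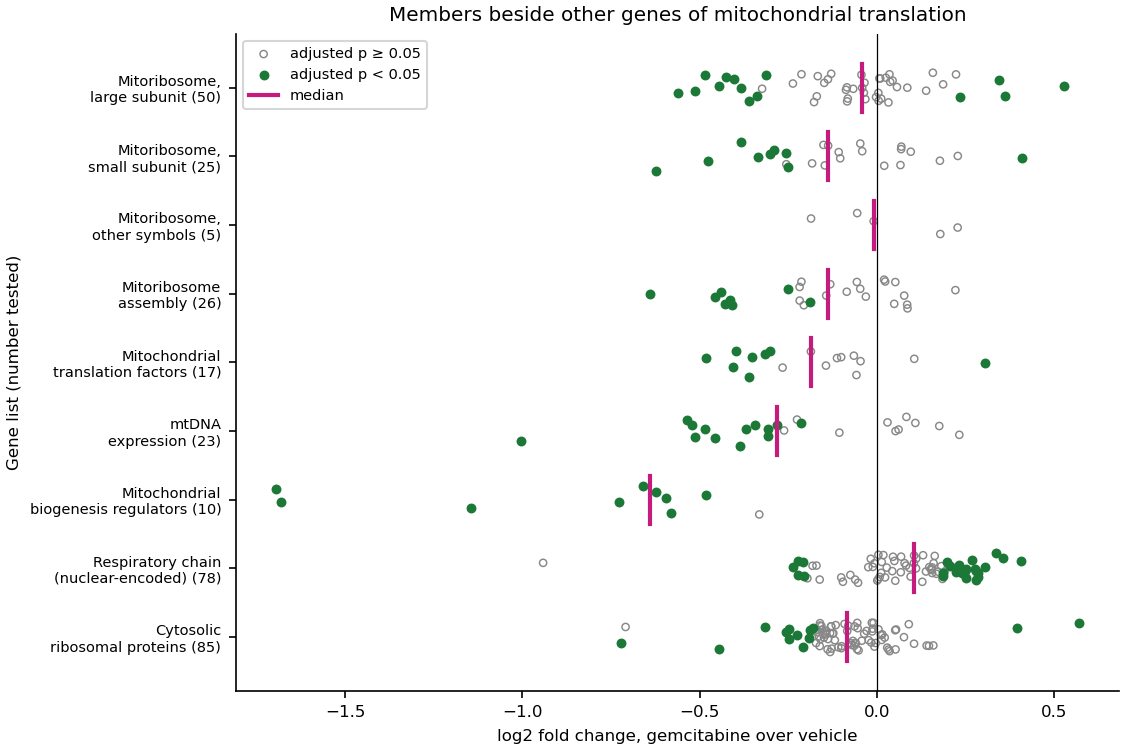
Log2 fold change of gemcitabine over vehicle for each tested gene of 9 lists, filled in green where the adjusted p of edgeR was under 0.05, with the median of each list as a pink bar. The subunits of the mitochondrial ribosome had medians of -0.04 (large, 0.07 with library totals) and -0.14 (small, -0.03), the regulators of biogenesis the lowest (-0.64), and the respiratory chain genes 0.11.

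Promoter features were set beside the responses. Among the 31 members with an ETS core 2 fell (MRPS26 and MRPL3) and 2 rose (MRPL33 and MRPL16), whereas among the 45 without it 16 fell and 3 rose. Over all tested genes the share called lower was 21.2% with the ETS core and 20.2% without it, and the share called higher was 15.8% and 19.6%. Among the 24 members with a YY1 core 5 fell and 1 rose, and among the 52 without it 13 fell and 4 rose, where 23.9% and 20.2% of tested genes with and without the core were called lower and 13.1% and 19.3% higher. Of the 8 members with an NRF1 core 2 fell and 0 rose, and of the 68 without it 16 fell and 5 rose. Among tested genes with and without this core, 24.2% and 20.2% were called lower and 13.4% and 19.2% higher. Of the 26 head-to-head members 3 fell and 2 rose, and of the 50 others 15 fell and 3 rose. Among tested genes with and without such a neighbour, 18.9% and 20.6% were called lower and 17.4% and 19.1% higher. With library totals 2 fell and 5 rose of the members with an ETS core, 12 fell and 7 rose of those without it, and 2 fell and 5 rose of the head-to-head members. Over all tested genes, with or without these features, 13.3% were called lower and 27.4% higher with library totals. These splits were made after the calls were known and were not tested.

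Open chromatin at the starts was read from DNaseI peaks, of which the deposited lists hold 9606 for vehicle and 10695 for gemcitabine. With 1 library per condition no difference between them could be tested. A peak lay within 1000 bases of an annotated start in 26 of 76 members in vehicle (34.2%, against 27.9% of tested genes) and in 31 in gemcitabine (40.8%, against 32.3%). Both lists had a peak in 19 members, 7 had one only in vehicle and 12 only in gemcitabine. The 19 include MRPS27, whose highest-scoring peaks lay near different annotated starts. They were chr5:71603779-71604826 in vehicle and chr5:71615609-71616517 in gemcitabine. The scores of these peaks, which rise with the confidence of the peak caller from a minimum of 50.0, had medians of 91.0 in vehicle and 77.9 in gemcitabine, where the whole lists had 71.1 and 73.8.

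MRPL24 had the highest member score in vehicle (208), with 129 in gemcitabine, and MRPL54 the highest in gemcitabine (225), with 184 in vehicle. MRPS30 had peaks in both lists, with scores of 110 and 80.5, and MRPL17 likewise with 92.8 and 72.2. MRPS26 had a peak in gemcitabine alone, whose score of 51.3 lies just above the minimum. No peak lay at the starts of MRPL41, MRPS11, MRPL49 and MRPL16 in either list, and MRPL33 had one in gemcitabine alone (59.4). Of the 26 members with a peak in vehicle 8 fell and 0 rose, and of the 31 with one in gemcitabine 7 fell and 1 rose. With library totals 7 fell and 1 rose of the former, and 6 fell and 5 rose of the latter. Over all tested genes, with or without a peak, 20% were called lower and 18.5% higher with TMM, and 13.3% and 27.4% with library totals. These splits were made after the calls were known and were not tested.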

How the data were processed

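Members and gene lists were chosen with earlier results of these data known. Single-end reads had been mapped by the authors on the hg19 build (TopHat2 2.0.8), and Cuffdiff 2.0.2 assigned them to protein-coding Gencode genes with a minimum of 10 reads. The deposited table gives estimated counts (fragments per gene and library), with fractions where reads were shared, and FPKM computed by the authors. How strand was treated is not given in the sources used here. The 2 further columns of scaled values were not used. The deposited DNaseI peak lists give a score, -10 log10 of the MACS p, called by the authors per condition at 1e-05.

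Estimated counts were rounded, and the 14854 genes with at least 10 fragments over 4 libraries went into edgeR 4.0.16 and its quasi-likelihood test (R 4.3.3, TMM scaling, Benjamini-Hochberg, no covariate, common biological coefficient of variation 0.0522). Standard errors are the log2 fold change over the root of F. A count of 3 fragments corresponds to 0.190 to 0.227 CPM. Named genes are members past the study's criteria, the 6 largest falls and up to 6 rises past an adjusted p of 0.05, the 4 highest and 4 lowest in FPKM, the MRPS18 paralogs, the stalk, MRPL58, MRPS30, the 5 subunits with other symbols, and the 3 largest changes per further list. Other names were chosen after their values were seen. Of the members, 66 had whole fragment counts in every library (within 0.01), 23 overlapped an exon of another coding gene, and 1 (MRPS12) was marked as failed by Cuffdiff. Names came from current symbols for 19619 genes. Start sites came from a later Gencode annotation carried to hg19. The tests were checked on simulated data. Alternatives used DESeq2 1.42.0, other scalings and filters, limma 3.58.1 on log2 FPKM, each library left out, and other peak rules.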

Additional observations from a re-analysis of the deposited data

How the results depend on the processing

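No paired analysis was possible because nothing links the library index of the deposited table with the labels' own replicate numbers. The 5 rises and 18 falls at an adjusted p under 0.05 became 6 and 18 with DESeq2-type size factors, 12 and 14 with library totals, 3 and 15 with DESeq2, 5 and 17 without a filter, 7 and 18 with filterByExpr, and 4 and 15 at an adjusted p under 0.01. Limma on log2(FPKM + 1) or log2(FPKM + 0.1) gave 3 and 3, and without a filter 0 and 0, with 9 rises and 10 falls at an unadjusted p under 0.05. The share of all genes at that unadjusted p was not computed. Shares of all tested genes called higher and lower were 18.5% and 20% in the main test and 27.4% and 13.3% with library totals. They were 11.5% and 14.5% with DESeq2 and 9.28% and 3.96% with limma on log2(FPKM + 1). For the other settings, those with a library left out included, these shares were not computed. Counts there are not read as a result about the members. Without the 30 members that had fractional fragments, an overlapping exon or a failed mark, 3 and 11 of 46 remained. With 1 library left out, where the lone library is assumed to vary like the others, the rises numbered 1 to 10 and the falls 8 to 22. Without vehicle 1 they were 1 and 8, without vehicle 2 they were 2 and 9, without gemcitabine 1 they were 5 and 22, and without gemcitabine 2 they were 10 and 18.

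Of the 23 called members, 8 were called in each of the 9 alternatives of edgeR and DESeq2 (MRPL3, MRPL15, MRPL17, MRPL24, MRPL41, MRPS2, MRPS26 and MRPS30). MRPS25 turned to 0.05 in limma, and the others kept their sign there. The criteria of the study gave 1 rise and 0 falls with library totals, 2 rises and 0 falls with limma under either pseudocount, and 0 and 0 with unfiltered limma. The share of all tested genes that met them was computed for the main test alone (5.69% higher and 4.43% lower). The median log2 fold change of the members reversed from -0.07 to 0.036 with library totals, and to 0.053, 0.054 and 0.053 in the 3 limma settings; elsewhere it stayed below 0. The FPKM, like library totals, are not centred on the bulk of genes. Peaks at starts with a score of at least 100 numbered 10 in vehicle and 11 in gemcitabine. These were 13.2% and 14.5% of the members, against 8.03% and 9.95% of tested genes. With 2 libraries per condition and standard errors of 0.06 to 0.17, small changes of single members could not be resolved at this depth.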
